A study of Mus musculus with 6 samples.

Results

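*Egr1* and its immediate-early partners are 10 genes chosen by symbol from the 26264 genes of the deposited table. They comprise the early growth response factors *Egr1*, *Egr2*, and *Egr3*, the corepressors *Nab1* and *Nab2*, the orphan nuclear receptors *Nr4a1*, *Nr4a2*, and *Nr4a3*, and the immediate early response genes *Ier2* and *Ier3*. All 10 had a row in the table, and 8 reached a mean of at least 10 normalized counts over the 6 libraries and were tested. Bulk RNA-seq was performed on hematopoietic stem cells (HSCs) sorted from the bone marrow of untreated female mice, 8 weeks old, with 3 C57Bl/6 wild-type (WT) mice and 3 *Irf1-/-* mice of the strain B6.129S2-*Irf1* tm1Mak/J. Each library came from 1 mouse, and libraries are named here by the replicate numbers 2, 3, and 4 of their labels, in which order the values of a genotype are always given. IRF1, a transcription factor of interferon and inflammatory signaling, is lost in every cell of these mice, so effects within HSCs and effects of the surrounding *Irf1-/-* tissue cannot be told apart. Reads counted on genes ranged from 43138521 to 59658080 per library.

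Immediate-early genes are transcribed within minutes of a signal, without new protein synthesis, mostly through serum response factor with its ETS partners and through CREB. EGR factors bind GC-rich elements in promoters, and the NAB proteins bind the EGR factors and repress their targets, with *Nab2* itself an EGR target that closes a feedback loop. The NR4A receptors have no known ligand in the usual sense, are themselves immediate-early genes, and together with *Egr1* are known in HSCs as factors of quiescence and retention in the marrow.

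The libraries carried the transcripts that define HSCs. Normalized counts of *Kit*, the stem cell factor receptor, were between 77902 and 88715, those of *Hlf* between 12357 and 17762, and those of *Mecom* between 8933 and 12875. *Slamf1*, which encodes the CD150 used in the sort, was between 2848 and 3823. Normalized counts of *Irf1* were 10122, 11120, and 12057.5 in WT HSCs and 9267, 9524, and 9287 in *Irf1-/-* HSCs. The genotypes did not overlap, but the *Irf1-/-* libraries were lower by little, at a log2 fold change of −0.24 (adjusted *P* = 0.170 in limma). The table counts whole genes and the exons removed by the allele are not given in the sources used here, so the remaining *Irf1* reads do not check the genotype labels.

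*Egr1*, the founding EGR factor, rose in *Irf1-/-* HSCs and was the member that passed the test. Its normalized counts were 2744, 3234, and 2778 in WT HSCs, and 6247, 5935, and 5471 in *Irf1-/-* HSCs. Every *Irf1-/-* library was far above every WT library, and the libraries of a genotype lay close together, with the highest over the lowest at 1.18 in WT and 1.14 in *Irf1-/-* HSCs. Means were 2919 ± 274 (SD, n = 3) in WT and 5884 ± 391 (SD, n = 3) in *Irf1-/-* HSCs, a ratio of 2.02. The log2 fold change was 1.01 (SE 0.097, 95% confidence interval 0.80 to 1.22), with an adjusted *P* of 3.89e-05. Fold changes are *Irf1-/-* over WT on the scale of log2(normalized count + 1), which depends on the added 1 for low genes, and calls required an adjusted *P* below 0.05 together with a log2 fold change beyond ±0.58. By exact permutation of the genotypes (two-sided), *P* was 0.1, which is as small as 3 libraries per group can give. In bulk RNA, more cells that contain *Egr1* transcripts and more *Egr1* RNA per cell cannot be told apart. Over 16 alternative settings the log2 fold change was between 0.97 and 1.09 and the adjusted *P* between 3.92e-19 and 0.0511. The highest of these adjusted *P* values came from limma without a trend in the prior variance, where the call was lost. Exons of *Egr1* overlap those of *Gm17507* in the GENCODE vM1 annotation, and that gene was not analysed here.

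Of the 8 tested members, 1 was called higher, where the same rule called 0.96% of all 17404 tested genes higher, and 0 were called lower, where it called 0.954%. Neither edgeR nor DESeq2 called a member lower, and no member had a negative fold change with an unadjusted *P* under 0.05 (8.07% of all genes). A positive fold change with an unadjusted *P* under 0.05 was found for 3 of the 8, *Egr1*, *Ier3*, and *Nab2* (8.38% of all genes). In either direction, 16.5% of all tested genes had an unadjusted *P* under 0.05. By adjusted *P* alone, *Egr1* and *Ier3* were higher, beside 1.73% of all genes, and no member was lower, beside 1.49%. *Irf1-/-* libraries lay above all WT libraries for *Egr1*, *Ier3*, and *Nab2*, as for 10.6% of all genes, and below them for none of the tested members, as for 9.27% of all genes. Fold changes were positive for 6 members and negative for 2, for 7 and 1 under quantile normalization and without WT replicate 3, and for 5 and 3 without WT replicate 2 or WT replicate 4. The median log2 fold change of the tested members was 0.20, and that of all tested genes was −0.0028.

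The other EGR factors had few reads. *Egr2*, best known from hindbrain and Schwann cell development and from lymphocytes, had normalized counts of 1.65, 31.6, and 43.0 in WT HSCs and of 30.9, 50.1, and 16.6 in *Irf1-/-* HSCs. The genotypes overlapped, and the lowest library, WT replicate 2, held 2 reads of the gene. A log2 fold change of 0.97 therefore had a 95% confidence interval from −0.98 to 2.93 (adjusted *P* = 0.681). It was 0.38 in edgeR, 0.37 in DESeq2, 0.45 with a pseudocount of 10, and −0.31 without WT replicate 2, and the ratio of the means was 1.28. *Egr3* was below the minimum for the test, with 1, 15, and 1 reads in WT and 3, 2, and 0 reads in *Irf1-/-* HSCs. Thus, 1 WT library held most of its reads, and the 0 reads in *Irf1-/-* replicate 4 allow up to 3 reads, a normalized count of 3.11, by counting error alone. The last family member, *Egr4*, had a single read in *Irf1-/-* replicate 3 and none in the other libraries.

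*Nab1* and *Nab2* encode the corepressors that hold EGR activity in check. *Nab2* had normalized counts of 1961, 1622, and 2114 in WT HSCs and of 2329, 2227, and 2421 in *Irf1-/-* HSCs. Every *Irf1-/-* library was above every WT library, although the highest WT and the lowest *Irf1-/-* library were close. *Nab2* did not pass the test, with a log2 fold change of 0.30 (95% confidence interval 0.06 to 0.54, adjusted *P* = 0.189), and of 0.19 without WT replicate 3. Exons of *Nab2* overlap those of *Stat6*, of *Tmem194*, the current *Nemp1*, and of *Gm16229*, which was not analysed here, in the GENCODE vM1 annotation, and because the strand setting of the counting is not known, reads of the overlapping parts cannot be assigned. *Stat6* was between 12452 and 13571 in WT and between 12873 and 15235 in *Irf1-/-* HSCs, with a log2 fold change of 0.09, and *Nemp1* had one of 0.04. Neither of these was called, with adjusted *P* values of 0.685 and 0.911.

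*Nab1* was almost level between the genotypes. Its normalized counts were 7727, 9397, and 7606 in WT and 7965, 8213, and 7944 in *Irf1-/-* HSCs, so that the 3 *Irf1-/-* libraries fell inside the WT range, whose top was WT replicate 3. The log2 fold change was −0.03 (95% confidence interval −0.23 to 0.17, adjusted *P* = 0.933), and its sign turned under quantile normalization (0.018) and without WT replicate 3 (0.07). The mean of *Egr1* thus stood at 201.6% of WT in *Irf1-/-* HSCs, that of *Nab2* at 122.5%, and that of *Nab1* at 97.5%.

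Neither of the tested NR4A receptors was called. *Nr4a1*, also named Nur77, had normalized counts of 541, 693, and 411 in WT HSCs and of 339, 561, and 433 in *Irf1-/-* HSCs. The genotypes overlapped, with replicate 3 the highest library in both. Its log2 fold change was −0.30, with a 95% confidence interval from −0.78 to 0.17 (adjusted *P* = 0.578), and with 1 library left out it was between −0.49 and −0.12. *Nr4a2*, or Nurr1, was at 447, 553, and 292 in WT and at 376, 463, and 466 in *Irf1-/-* HSCs. The *Irf1-/-* libraries lay within the WT range, whose highest and lowest libraries differed 1.90-fold. The log2 fold change of *Nr4a2* was 0.06 (95% confidence interval −0.42 to 0.53, adjusted *P* = 0.945) and turned to −0.20 without WT replicate 4. *Nr4a3* was below the minimum for the test, with 7, 0, and 2 reads in WT and 9, 0, and 1 reads in *Irf1-/-* HSCs. In both genotypes replicate 2 held the most reads of the gene.

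The IER genes are named for their rapid induction and are not related in sequence across all their members. *Ier3*, also known as IEX-1, encodes a small stress-inducible protein that acts on survival signaling. It had normalized counts of 2266, 2043, and 2386 in WT HSCs and of 3303, 2706, and 3505 in *Irf1-/-* HSCs. Each *Irf1-/-* library was above each WT library, and replicate 3 was the lowest library of both genotypes. Its mean in *Irf1-/-* HSCs stood at 142.1% of that in WT HSCs. For *Ier3* the log2 fold change was 0.50 (95% confidence interval 0.26 to 0.74) with an adjusted *P* of 0.0285, and the gene was not called because the change was under 0.58. Without *Irf1-/-* replicate 3 it was called, at 0.61 (adjusted *P* = 0.0138). Its adjusted *P* was above 0.05 without *Irf1-/-* replicate 2 (0.120) or 4 (0.154), WT replicate 2 (0.0722) or 3 (0.118), or the trend (0.278), and its lowest over the 16 alternative settings was 0.00116.

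*Ier2*, a nuclear protein induced by growth factors, had normalized counts of 7322, 8106, and 7647 in WT HSCs and of 7701, 8569, and 8305 in *Irf1-/-* HSCs. The genotypes overlapped within a narrow span, in which the highest of the 6 libraries was 1.17 times the lowest. Its log2 fold change was 0.09 (95% confidence interval −0.09 to 0.27, adjusted *P* = 0.684). Its relatives *Ier5* and *Ier5l* had log2 fold changes of 0.10 and 0.11, and neither was called (adjusted *P* = 0.743 and 0.931). *Ier5* was between 1286 and 1608 in WT and between 1454 and 1591 in *Irf1-/-* HSCs, and the far lower *Ier5l* was between 54.1 and 75.3 over the 6 libraries.

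Levels of different genes were compared per length, as normalized counts per kilobase of the union of annotated exons (GENCODE vM1). In WT HSCs, *Ier2* was the highest member at 5054 ± 259 per kilobase (SD, n = 3). *Nab1* (2019 ± 245) and *Ier3* (1973 ± 154) followed and overlapped each other between libraries. *Egr1* came next at 941 ± 88.4 per kilobase, apart from its neighbors in the order, which were *Ier3* above and *Nab2* (646 ± 85.7) below. *Nr4a1* (222 ± 57.1) and *Nr4a2* (106 ± 32.4) were lower and did not overlap. *Egr2*, *Egr3*, and *Nr4a3* had 7.48, 4.27, and 0.441 per kilobase and each overlapped the next in that order.

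In *Irf1-/-* HSCs the order per kilobase was the same except that *Ier3*, at 2804 ± 367 (SD, n = 3), stood above *Nab1*, at 1969 ± 36.6. *Egr1* reached 1898 ± 126 per kilobase. Its libraries, between 1765 and 2015 per kilobase, overlapped those of *Nab1*, between 1946 and 2011. In WT HSCs the highest *Egr1* library, at 1043 per kilobase, was below the lowest *Nab1* library, at 1863. These lengths come from a different annotation than the one behind the counts, so the levels are approximate.

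The regulators that act on immediate-early promoters had no called gene. Of 22 listed symbols, 2 of them older names of listed genes, for serum response factor and its partners, CREB with its coactivators, and the ERK cascade, 20 were tested, 9 with a positive and 11 with a negative fold change, and their median log2 fold change was −0.02. Many of these values were close to 0, and 11 were positive and 9 negative under quantile normalization and 10 of each in edgeR and DESeq2. All *Irf1-/-* libraries were above all WT libraries for 7 of the 20 (10.6% of all genes) and below them for 1 (9.27% of all genes). Neither limma, edgeR, nor DESeq2 called any, and 3 of the 20 had an unadjusted *P* under 0.05 in limma (16.5% of all genes), all with positive fold changes. Among the most abundant were *Rps6ka1* (the kinase RSK1, log2 fold change 0.13, adjusted *P* = 0.534) and *Mapkapk2* (a kinase downstream of p38, −0.18, adjusted *P* = 0.317). *Srf* itself had normalized counts of 3043, 3022, and 2553 in WT and of 2614, 2996, and 2632 in *Irf1-/-* HSCs. The groups overlapped, with a log2 fold change of −0.06 (95% confidence interval −0.29 to 0.16, adjusted *P* = 0.847). *Srf*, the ETS factor *Elk3*, and the kinase gene *Rps6ka3* were chosen here after their values were seen. *Elk3*, which can repress serum response factor targets, was at 4159, 4255, and 3853 in WT and at 4703, 4998, and 5224 in *Irf1-/-* HSCs. Its groups did not overlap, yet its log2 fold change of 0.28 had an adjusted *P* of 0.110, and that of *Rps6ka3* was 0.33 with an adjusted *P* of 0.117. Over the 16 alternative settings, adjusted *P* was between 0.0279 and 0.404 for *Elk3* and between 0.0368 and 0.404 for *Rps6ka3*. For *Rps6ka1* it was between 0.0416 and 0.77.

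Among other immediate-early genes, 31 of 35 listed symbols, 2 of them older names, were tested, of which 22 had a positive and 9 a negative fold change, with a median log2 fold change of 0.11. Without WT replicate 4, 17 were positive and 14 negative. These counts include *Klf4* and *Ccn1*, each of which reached the minimum for the test through 1 genotype only. *Klf4*, counted as positive, had means of 9.94 in WT and 19.9 in *Irf1-/-* HSCs. *Ccn1*, counted as negative, had means of 12.6 and 9.45, and no test is read for either gene. One gene was called, and it was lower in *Irf1-/-* HSCs. The same rule called 0.954% of all tested genes lower and 0.96% higher. *Btg2*, an antiproliferative gene and p53 target, had normalized counts of 1758, 1840, and 1359 in WT HSCs and of 1341, 954, and 923 in *Irf1-/-* HSCs. The groups did not overlap but came close, with *Irf1-/-* replicate 2 just under WT replicate 4. At a log2 fold change of −0.63, the adjusted *P* was 0.0460, and edgeR and DESeq2 also called the gene. It was no longer called when *Irf1-/-* replicate 3 was left out (−0.56, adjusted *P* = 0.121), nor without *Irf1-/-* replicate 4 (−0.53, 0.192), WT replicate 2 (−0.58, 0.143), or WT replicate 3 (−0.55, 0.181), nor with quantile normalization (adjusted *P* = 0.0521) or without the trend (0.330). No gene of the list was called higher by limma, edgeR, or DESeq2, and 5 of the 31 had a positive fold change with an unadjusted *P* under 0.05 (8.38% of all genes).

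Those 5 genes, chosen after their values were seen, were *Nfkbiz*, *Sgk1*, *Dusp5*, *Csrnp1*, and *Junb*. *Nfkbiz*, a nuclear IκB protein, was at 351, 339, and 409.9 in WT HSCs and at 602, 423, and 592 in *Irf1-/-* HSCs. The groups came close but did not overlap, and the log2 fold change was 0.54 (adjusted *P* = 0.144 in limma, and between 0.0395 and 0.445 over the 16 alternative settings). The ERK phosphatase gene *Dusp5* was at 826, 651, and 749.8 in WT and at 867, 1116, and 916 in *Irf1-/-* HSCs. Its groups were apart by a narrow gap, at a log2 fold change of 0.38 (adjusted *P* = 0.202). *Sgk1*, *Csrnp1*, and *Junb* had log2 fold changes of 0.42, 0.32, and 0.20 with adjusted *P* values of 0.230, 0.175, and 0.272. Of all 31 tested genes, 8 had every *Irf1-/-* library above every WT library (10.6% of all genes) and 1, *Btg2*, had every one below (9.27% of all genes). The most abundant genes of the list were *Myc* (log2 fold change 0.07, adjusted *P* = 0.842), *Mcl1* (0.06, 0.824), and the IκBα gene *Nfkbia* (−0.02, 0.958), whose sign turned under quantile normalization (0.031).

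The AP-1 genes *Fos* and *Jun*, also chosen after their values were seen, varied between mice of one genotype far more than *Egr1*. *Fos* had normalized counts of 422, 379, and 57.0 in WT HSCs and of 604, 133, and 782 in *Irf1-/-* HSCs. *Jun* was at 7100, 7356, and 4033 in WT and at 8720, 3679, and 8196 in *Irf1-/-* HSCs. WT replicate 4 and *Irf1-/-* replicate 3 were the lowest libraries of their genotype for both genes, and the groups overlapped. The highest over the lowest library within a genotype was 7.40 in WT and 5.87 in *Irf1-/-* HSCs for *Fos*, against 1.18 and 1.14 for *Egr1*. The log2 fold change of *Fos* was 0.92 (95% confidence interval −0.54 to 2.39, adjusted *P* = 0.581) and was −0.0064 without WT replicate 4. That of *Jun* was 0.11 (95% confidence interval −0.48 to 0.70, adjusted *P* = 0.913) and was −0.12 without *Irf1-/-* replicate 2, −0.07 without *Irf1-/-* replicate 4, and −0.17 without WT replicate 4. *Egr1* did not share this order, since *Irf1-/-* replicate 3 was the middle *Irf1-/-* library and WT replicate 4 the middle WT library. Without WT replicate 4 the log2 fold change of *Egr1* was 0.98 (adjusted *P* = 0.000202), and without *Irf1-/-* replicate 3 it was 1.01 (adjusted *P* = 0.000464). The cause of the spread of *Fos* and *Jun*, and any part of it in the *Egr1* result, was not tested.

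**Figure D1:**
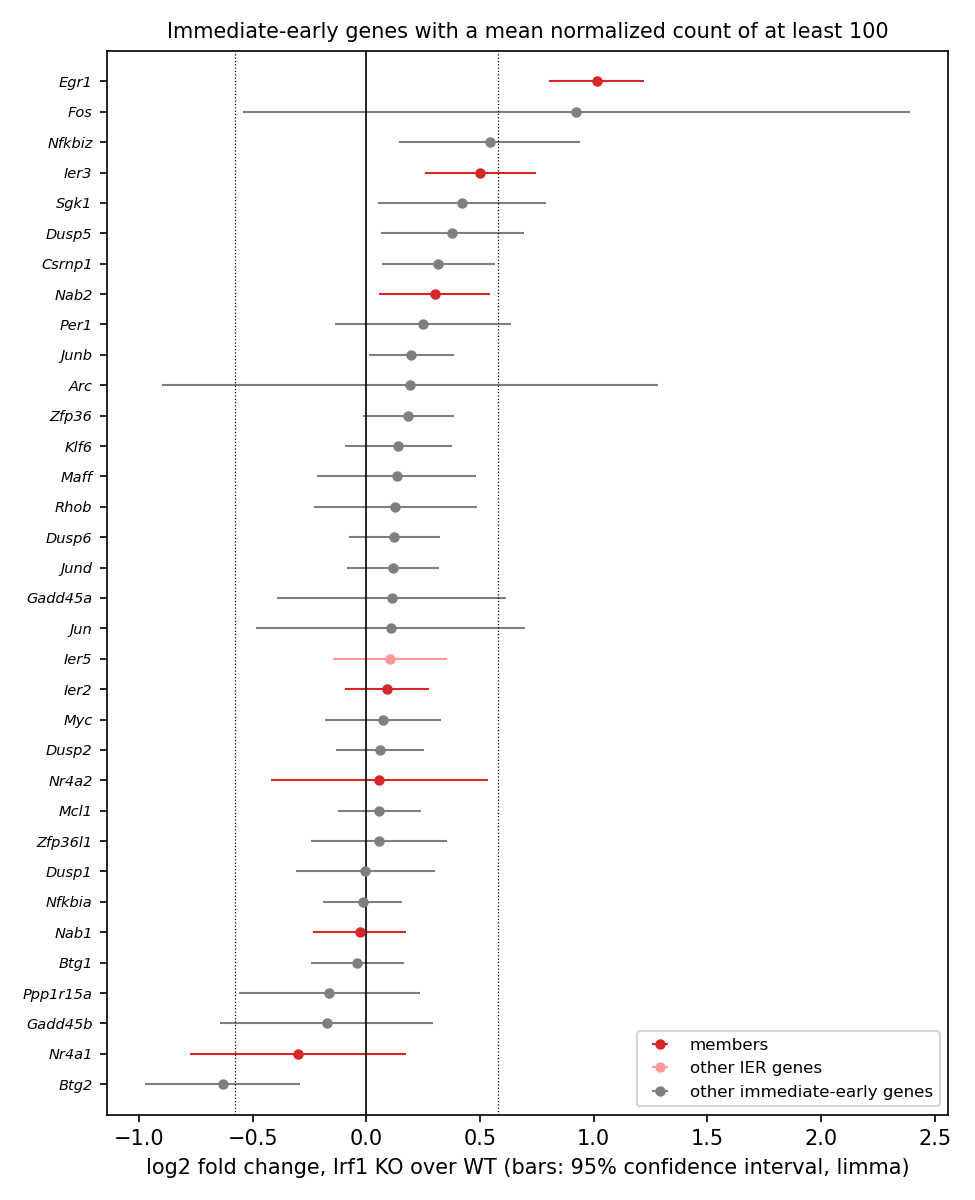
Log2 fold changes of *Irf1-/-* over WT HSCs (horizontal axis, on log2(normalized count + 1), limma, n = 3 mice per genotype). The 34 genes are the members, other IER genes, and other immediate-early genes that averaged 100 or more normalized counts. Among them are 7 members in red, which include the corepressor genes *Nab1* and *Nab2*. Bars are 95% confidence intervals and dotted lines mark ±0.58. Intervals are above 0 for 8 genes and below 0 for 1, and the interval of *Egr1*, from 0.80 to 1.22, lies wholly above 0.58.

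Genes known from other cells as EGR targets included none that limma called. Of 13 listed, 12 were tested, 4 with a positive and 8 with a negative fold change, and the median log2 fold change was −0.07. Under quantile normalization, median centring, edgeR, and DESeq2, 3 were positive and 9 negative. None was called by edgeR either, DESeq2 called 1, and 3 of the 12 had an unadjusted *P* under 0.05 in limma (16.5% of all genes). *Cdkn1a*, the p21 inhibitor of cyclin-dependent kinases, had normalized counts of 245, 175, and 144 in WT HSCs and of 287, 351, and 312 in *Irf1-/-* HSCs. All *Irf1-/-* libraries were above all WT libraries, with WT replicate 2 nearest to them. The log2 fold change was 0.78 (95% confidence interval 0.27 to 1.29) with an adjusted *P* of 0.10 in limma and of 0.0267 in DESeq2, which called the gene, and over its 16 alternative settings the adjusted *P* was between 0.0267 and 0.290. The adhesion molecule gene *Icam1* was at 5695, 5613, and 6657 in WT and at 7066, 7488, and 8413 in *Irf1-/-* HSCs. Its groups did not overlap, and its log2 fold change was 0.35 (adjusted *P* = 0.0714 in limma, and between 0.0153 and 0.346 over the 16 alternative settings). *Cdkn1a* and *Icam1* were chosen after their values were seen.

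*Tgfb1*, an EGR target that encodes a cytokine of HSC quiescence, lay in the opposite direction. It had normalized counts of 7845, 8812, and 7291 in WT HSCs and of 6607, 5485, and 6470.5 in *Irf1-/-* HSCs. Every *Irf1-/-* library was below every WT library, and the log2 fold change was −0.37 (95% confidence interval −0.58 to −0.15), with an adjusted *P* of 0.0681 in limma. Over its 16 alternative settings the adjusted *P* was between 0.0129 and 0.347, and the gene was called in none. The other abundant genes of the list, *Ptpn6* (the phosphatase SHP-1) and *Trp53* (p53), had log2 fold changes of 0.07 and −0.11 with adjusted *P* values of 0.791 and 0.615. Of the 12 tested genes, 2 had all *Irf1-/-* libraries above all WT libraries (10.6% of all genes) and 3 had all below (9.27% of all genes).

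The 4 genes listed as partners of the NR4A receptors, the retinoid X receptors and *Cebpa*, passed the minimum for the test. *Rxrg* passed it only through the *Irf1-/-* libraries. None of the other 3 genes was called by limma, edgeR, or DESeq2. Over these 3 the median log2 fold change was 0.05, and 1, *Rxra*, had an unadjusted *P* under 0.05 (16.5% of all genes). *Rxra*, a heterodimer partner of NR4A1 and NR4A2, was at 1085, 1210.3, and 1362 in WT and at 1325, 1795, and 1479 in *Irf1-/-* HSCs. The groups overlapped between WT replicate 4 and *Irf1-/-* replicate 2, and the log2 fold change was 0.32 (adjusted *P* = 0.242). For *Rxrb* the log2 fold change was 0.05 (adjusted *P* = 0.840), and *Cebpa*, the myeloid factor that NR4A receptors act on in HSCs, was at −0.04 (adjusted *P* = 0.982). *Cebpa* turned to a positive value without *Irf1-/-* replicate 2 (0.17), *Irf1-/-* replicate 3 (0.06), or WT replicate 4 (0.36). *Rxrg*, chosen after its values were seen, was low, with 1.65, 2.25, and 9.68 in WT and 10.7, 19.0, and 24.9 in *Irf1-/-* HSCs. All its *Irf1-/-* libraries were above the WT libraries, and no test is read for it.

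Markers of some cell types and states differed between the genotypes along with *Egr1*. All 6 megakaryocyte markers had negative fold changes, except that *Ppbp* was at 0.0066 without WT replicate 3. Of all tested genes, 49.6% had positive fold changes. Every *Irf1-/-* library was below every WT library for 4 of the 6 markers (9.27% of all genes). By the rule that called 0.954% of all tested genes lower, 3 markers were called lower. These were *Pf4* (log2 fold change −1.11, adjusted *P* = 0.00334), *Gp1bb* (−0.90, 0.00320), and *Gp5* (−0.64, 0.0337). The calls of these 3 were lost without the trend, and that of *Gp5* also without *Irf1-/-* replicate 2 (adjusted *P* = 0.0649) or 3 (0.0982) or WT replicate 2 (0.0670) or 3 (0.137). Summed over the list, normalized counts were 52513, 66823, and 49507 in WT and 44141, 27462, and 39541 in *Irf1-/-* HSCs, with *Itga2b* the most abundant gene and none of the 6 listed at 0. The sums of the genotypes did not overlap, with WT replicate 3 the highest and *Irf1-/-* replicate 3 the lowest. Without these libraries in turn, the log2 fold change of *Egr1* was 1.09 (adjusted *P* = 3.98e-05) and 1.01 (adjusted *P* = 0.000464). With either left out the sums of the genotypes still did not overlap, so these values do not separate *Egr1* from the markers. In the erythroid list, 4 globin genes were listed at 0 in all libraries. *Klf1*, its most abundant gene, was called lower (−0.72, adjusted *P* = 0.0361), but not without the trend (0.316), *Irf1-/-* replicate 2 (0.0583) or 3 (0.0700), or WT replicate 2 (0.117) or 3 (0.109). That list summed to 1436, 1319, and 1201 in WT and to 925, 622, and 957 in *Irf1-/-* HSCs.

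The HSC markers also differed in part. *Procr*, which encodes the endothelial protein C receptor of primitive HSCs, was at 4487, 3754, and 4147 in WT and at 5423, 6456, and 5866 in *Irf1-/-* HSCs. *Ly6a*, the Sca1 gene and a known interferon target, was at 6908, 7439, and 7692 in WT and at 4974, 6047, and 5376 in *Irf1-/-* HSCs. Neither gene overlapped between the genotypes, and the log2 fold changes of 0.52 (adjusted *P* = 0.0112) and −0.43 (adjusted *P* = 0.0245) were under the threshold for a call, although *Procr* was called without WT replicate 2 (0.58, adjusted *P* = 0.0149). The adjusted *P* was above 0.05 for both genes without the trend (0.227 and 0.262), and for *Ly6a* also without *Irf1-/-* replicate 2 (0.115) or 4 (0.112) or WT replicate 3 (0.0786). Of the 6 HSC markers, 4 had positive fold changes. *Kit* joined them under quantile normalization and without *Irf1-/-* replicate 2, *Irf1-/-* replicate 4, or WT replicate 3. In limma, 5 of the 6 had an unadjusted *P* under 0.05 (16.5% of all genes), but none was called by limma, edgeR, or DESeq2. *Kit* was the most abundant, and the list summed to 123133, 119578, and 118831 in WT and to 118494, 135267, and 122313 in *Irf1-/-* HSCs. The part of the megakaryocyte, erythroid, and HSC markers in the *Egr1* result was not tested.

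Markers of other cells gave no call. The B cell list, led by *Cd79b*, had 5 tested genes and sums from 2667 to 3048 in WT and from 2873 to 3103 in *Irf1-/-* HSCs. T and NK cell genes, led by *Klrb1c*, had 3 tested genes and sums from 442 to 587 in WT and from 472 to 891 in *Irf1-/-* HSCs. The granulocyte and monocyte list, led by *Itgam*, had 6 tested genes and sums of 1169, 2363, and 4378 in WT and of 2241, 1938, and 3016 in *Irf1-/-* HSCs. For these 3 lists, limma, edgeR, and DESeq2 called no gene, and none had an unadjusted *P* under 0.05 in limma (16.5% of all genes). WT replicate 4 stood apart in the neutrophil genes *S100a8*, with 1033 against 46.9 and 13.5 in the other WT libraries, and *S100a9*, with 1246 against 36.2 and 10.1.

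The genes closest to *Egr1* in their pattern over the 6 libraries were found by the root mean square difference of log2(normalized count + 1), each gene centred on its own mean, among 12062 genes that averaged 100 or more normalized counts. These were *Fgd5* (difference 0.126), a guanine nucleotide exchange factor gene used as an HSC marker, the transcriptional repressor *Nfil3* (0.128), the kinesin *Kifc2* (0.128), *Zfp185* (0.129), and the small GTPase *Rab36* (0.137). *Fgd5* had normalized counts of 3918, 3818, and 3522 in WT HSCs and of 6752, 6881, and 6387 in *Irf1-/-* HSCs. *Nfil3* was at 249, 237, and 235 in WT and at 448, 431, and 409.01 in *Irf1-/-* HSCs. As for *Egr1*, the genotypes of both were widely apart and the libraries within a genotype close together. Log2 fold changes were 0.83 for *Fgd5*, 0.84 for *Nfil3*, 0.85 for *Kifc2*, 0.95 for *Zfp185*, and 0.85 for *Rab36*. Likeness to *Egr1* fixes the direction of these values, so they are given as a description without a test.

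Promoter sequences, taken as the 250 bases before each annotated start in RefSeq (GRCm38.p6), were matched for 7 of the 10 members. *Egr1*, *Egr3*, and *Ier2* are named only. Both strands were searched for the CREB element TGACGTCA, its half-site TGACG, which each full element also contains, the EGR element GCGNGGGCG, the NR4A element AAAGGTCA, the interferon regulatory factor element GAAANNGAA, and the serum response factor motif known as the CArG box. Of 32851 promoters of this length, 1.55% held the full CREB element, 17.8% the half-site, 4.70% the EGR element, 1.34% the NR4A element, 7.13% the interferon regulatory factor element, and 1.47% the CArG box. A chromosome was left out of these promoters. Identical sequences of a gene were counted once, and its other starts each count. The promoters of *Nr4a1*, *Nr4a2*, and *Nr4a3*, genes of the same family, are printed because each held 4 half-sites. Among the promoters searched, 0.137% held 4 or more, a cut equal to the count in these genes. The NR4A genes were chosen as immediate-early genes, on which CREB often acts, so this share is a description and not a test. Half-sites or EGR elements on either strand are in capitals. The *Nr4a1* sequence is chr15:101266596-101266845 on the plus strand, that of *Nr4a2* is chr2:57124004-57124253 on the minus strand, and that of *Nr4a3* is chr4:48045055-48045304 on the plus strand, each ending just before the annotated start of the first exon.
Nr4a1: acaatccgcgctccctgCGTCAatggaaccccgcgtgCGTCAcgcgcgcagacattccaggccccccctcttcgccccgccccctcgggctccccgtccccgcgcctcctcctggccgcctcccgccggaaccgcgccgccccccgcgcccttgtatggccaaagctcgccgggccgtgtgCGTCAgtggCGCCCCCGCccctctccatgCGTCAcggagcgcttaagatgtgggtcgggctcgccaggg
Nr4a2: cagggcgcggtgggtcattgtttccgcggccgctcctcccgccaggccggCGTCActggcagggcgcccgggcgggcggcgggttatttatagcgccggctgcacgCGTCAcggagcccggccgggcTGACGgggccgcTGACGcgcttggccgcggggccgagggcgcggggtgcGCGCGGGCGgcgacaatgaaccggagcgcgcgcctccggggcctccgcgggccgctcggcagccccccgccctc
Nr4a3: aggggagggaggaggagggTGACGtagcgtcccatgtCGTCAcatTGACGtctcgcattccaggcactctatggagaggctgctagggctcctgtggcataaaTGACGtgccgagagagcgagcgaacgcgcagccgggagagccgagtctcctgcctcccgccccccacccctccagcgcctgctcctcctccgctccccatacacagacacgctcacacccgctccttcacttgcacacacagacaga

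*Nr4a1* and *Nr4a2* each also held 1 EGR element. *Nab1* (chr1:52500449-52500698, minus strand) held 3 EGR elements and 1 half-site, and its sequence is shown because the corepressor was almost level between genotypes in which *Egr1* differed. *Ier3* (chr17:35821463-35821712, plus strand) is shown as the other member with an adjusted *P* under 0.05 over all libraries, and none of the 6 motifs was in its window. The window of *Nab2* also held none. Capitals mark EGR elements and half-sites as above.
Nab1: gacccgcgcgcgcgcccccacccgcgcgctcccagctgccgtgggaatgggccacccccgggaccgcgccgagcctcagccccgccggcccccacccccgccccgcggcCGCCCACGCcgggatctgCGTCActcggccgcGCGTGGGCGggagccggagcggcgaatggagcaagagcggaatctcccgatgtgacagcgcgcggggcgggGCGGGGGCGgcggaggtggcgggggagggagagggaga
Ier3: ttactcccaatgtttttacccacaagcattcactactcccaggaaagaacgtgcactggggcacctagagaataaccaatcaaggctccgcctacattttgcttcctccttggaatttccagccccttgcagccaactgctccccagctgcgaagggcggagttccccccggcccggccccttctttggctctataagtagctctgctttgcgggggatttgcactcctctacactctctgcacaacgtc

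*Egr2* has 5 annotated starts. The third start of these was preceded by a CArG box between 72 and 63 bases before it and by 2 CREB half-sites, and the second by a CArG box and 1 interferon regulatory factor element. A match describes letters in a window, and no binding was measured.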

How the data were processed

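HSCs (Lin-Sca1+cKit+CD150+CD48-) were sorted from 3 WT and 3 *Irf1-/-* mice, and samples were grouped by genotype from their labels. The authors made cDNA with SMART-Seq v4 and libraries with Nextera XT, used Trim Galore! for trimming, HISAT2 for alignment, and Htseq-count for counting, without molecular identifiers, so that counting error is a lower limit. The build in the submitters' processing notes is mm39, and versions, annotation, and strand setting are not given in the sources used here. The deposited values are a signal, namely per-gene counts that the authors scaled by the DESeq2 size factor of the library, here called normalized counts. Whole reads were recovered for 100% of values (within 0.01 of a read).

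The comparison of genotypes used limma 3.58.1 (R 4.3.3), with a trend in eBayes, on values transformed to log2(normalized count + 1). It covered the 17404 genes whose mean reached 10, with Benjamini-Hochberg adjustment over all of them. On the recovered reads, edgeR 4.0.16 called 162 genes higher and 161 lower, and DESeq2 1.42.0 called 295 and 209. Other alternatives were the pseudocount, the filter, the trend, quantile normalization, median centring, the replicate block, the fold threshold, and each library left out in turn. As a check for a library deposited more than once, chi-square per gene between libraries of a genotype was 16.0 to 30.0, so no pair held the same reads. The members and lists were chosen with earlier results of these data known. Named genes were the members, *Irf1*, the called and the 3 most abundant genes of each list of regulators, immediate-early genes, targets, and partners, and the 5 genes nearest to *Egr1*. One gene that this covers is not reported here. Other genes, cell type markers aside, were named after their values were seen. Figures were drawn with matplotlib 3.10.9.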

Additional observations from a re-analysis of the deposited data

How the results depend on the processing

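*Egr1* kept its direction in all 16 alternatives and its call in 15. Of the other members, *Nab2*, *Nr4a1*, and *Ier2* kept direction and side of the threshold in all 16. Against 167 genes called higher and 166 lower, limma without a trend called 7 and 33 and 0 members, with 2 members at an unadjusted *P* under 0.05, DESeq2 called 295 higher, and dropping the fold threshold gave 301 and 260 and 2 members, *Egr1* and *Ier3*. With 1 library left out, the counts were 83 to 304 higher, 105 to 265 lower, and 1 to 2 members. The sign turned for *Nab1* (0.018) and *Nfkbia* (0.031) under quantile normalization and for *Fosb* (−0.0046) under median centring, and with 1 library left out within the ranges of *Egr2* (−0.31 to 1.72), *Nab1* (−0.084 to 0.069), *Nr4a2* (−0.20 to 0.26), *Ier5l* (−0.011 to 0.22), *Fos* (−0.0064 to 1.71), *Fosb* (−0.45 to 0.88), *Jun* (−0.17 to 0.51), *Myc* (−0.061 to 0.20), *Nfkbia* (−0.049 to 0.0028), *Arc* (−0.41 to 0.69), *Cebpa* (−0.40 to 0.36), and *Nemp1* (−0.048 to 0.090). Of 105 tested genes of the lists, 34 changed sign in at least 1 alternative and 7 in 4 or more, namely *Cd69*, *Dusp1*, *Fosb*, *Kit*, *Map2k1*, *Mrtfa*, and *Ncr1*. The cause of these shifts was not tested. The replicate block called 219 higher, 196 lower, and 1 member. Deviations of libraries with the same number correlated at −0.094, 0.246, and 0.147, and *Irf1-/-* replicate 2 correlated best with WT replicate 4 (0.251), so the numbers were not taken to pair the mice.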

Other observations

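*Arc*, an immediate-early gene best known from neurons, had normalized counts of 124, 104, and 48.4 in WT HSCs and of 84.2, 226, and 48.8 in *Irf1-/-* HSCs. *Irf1-/-* replicate 3, the lowest *Irf1-/-* library for *Fos* and *Jun*, was the highest for *Arc*. The groups overlapped, with a log2 fold change of 0.19 (95% confidence interval −0.90 to 1.28, adjusted *P* = 0.916 in limma). *Fosb*, a low AP-1 gene, was at 33.7, 32.7, and 12.9 in WT and at 42.6, 6.91, and 48.8 in *Irf1-/-* HSCs. Its lowest libraries were those of *Fos*, and its log2 fold change was 0.03 (adjusted *P* = 0.992). Both genes were chosen after their values were seen.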
